A study of Mus musculus with 47 samples.

Results

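Transcripts of 10 genes that p53 is known to activate, Cdkn1a, Mdm2, Ccng1, Bax, Bbc3, Phlda3, Trp53inp1, Eda2r, Sesn2 and Zmat3, were followed through liver, lung and brain of Daxx mutant mouse embryos. They were chosen by symbol among the 20456 genes of the count table, and 10 of 10 passed the filter on low counts, which kept 16892 genes. RNA-seq had been performed on 47 libraries from E18.5 embryos in 12 groups. The S226A embryos were homozygous for a Daxx allele whose alanine substitution abolishes the binding of Daxx to histone H3.3. The Y130A embryos were homozygous for an allele that abolishes its binding to Atrx. Each mutant was compared with wild-type embryos of its own litters, which carried neither allele. Both alleles were germline knock-ins made with CRISPR/Cas9 in C57BL/6N zygotes and backcrossed to C57BL/6J, so that every cell of a mutant embryo carried them, and silent changes against renewed cutting were carried along. Each group held 4 libraries from 4 litters, apart from 3 wild-type lungs in the Y130A litters, and liver, lung and brain were largely taken from the same 17 embryos.

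The total count per library was between 15722147 and 26190403 in the S226A litters (median 20341531) and between 36351738 and 54885020 in the Y130A litters (median 44523912), so that low counts were measured less precisely in the former. Levels are given as CPM, counts relative to the TMM-scaled library size. Summed over 6 markers, hepatocyte transcripts lay between 146029 and 221805 CPM in liver and reached at most 1327 CPM in lung. The sum of 6 markers of lung epithelium was at least 7130 CPM in lung and at most 35.9 CPM elsewhere, and that of 6 neuronal markers was at least 5136 CPM in brain and at most 43.8 CPM elsewhere. A pair of liver libraries stood apart by transcripts of squamous epithelium (8 markers): 1 wild-type liver of the S226A litters at 156.4 CPM and 1 Y130A liver at 101 CPM. The liver results below were recomputed without them. Transcripts of Daxx itself differed from wild-type by log2 fold changes between -0.12 and 0.04 in the 6 mutant comparisons, with adjusted p of at least 0.857 (edgeR, Benjamini-Hochberg), which does not check a substitution within the protein. Nor does it give the level of the protein. For that the paper reports a decrease in S226A and an increase in Y130A, in embryonic lung and fibroblasts and clearest in the fibroblasts.

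p53 is a transcription factor that is held at low levels by the ubiquitin ligase Mdm2 and is stabilized after DNA damage and other stresses. It then binds response elements near its target genes and raises transcripts that stop the cell cycle, trigger apoptosis or adjust metabolism, and it raises Mdm2 itself, which closes a negative feedback loop. Several of these targets are also transcribed without p53, and Daxx has been described as a partner of Mdm2 in the control of p53.

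A p53 response element consists of a pair of decamers, and the windows around the RefSeq transcription starts (250 bases before to 50 after, GRCm38.p6) were searched on both strands for them. Windows were at hand for 8 of the 10 genes, and all but Trp53inp1 and Zmat3 were among them. These 8 genes had 11 windows. An exact match to the p53 consensus decamer lay in 4 of the 11 windows (36.4%), 1 each of Cdkn1a, Ccng1, Bax and Mdm2, against 8.36% of all 32851 windows. A full element of 20 bases with at most 3 mismatches lay in 3 of 11 (27.3%), 1 each of Cdkn1a, Ccng1 and Bbc3, against 1.38% of all windows. These stretches are shown since they are where p53 could act directly on the members, with the match in capitals and 5 bases on each side, and a match is a description of the letters only:
Cdkn1a, full element with 1 mismatch, chr17:29090923-29090952, plus strand: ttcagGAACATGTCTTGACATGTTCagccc
Ccng1, full element with 1 mismatch, chr11:40755457-40755486, minus strand: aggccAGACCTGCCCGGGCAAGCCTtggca
Bbc3, full element with 3 mismatches, chr7:16309481-16309510, plus strand: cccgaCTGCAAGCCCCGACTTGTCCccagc
Bax, decamer, chr7:45467085-45467104, minus strand: atcccAGGCAAGCTTtgaac
Mdm2, decamer, chr10:117710930-117710949, minus strand: gatagGAACTTGCCTagcga
The windows of Phlda3, Eda2r and Sesn2 held neither. Elements elsewhere in these genes, as in introns, were not searched.

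In S226A liver, 2 of the 10 genes, Mdm2 and Eda2r, were expressed more highly than in wild-type littermates at an adjusted p below 0.05, and 0 were expressed less. Of all genes tested, 11.7% passed in this comparison (6.14% higher and 5.54% lower). In the other 5 comparisons 0 of the 10 genes passed, where the share of all genes was 1.88% in S226A lung, 0.243% in S226A brain, 0.272% in Y130A liver, 0.0178% in Y130A lung and 0.00592% in Y130A brain. At an unadjusted p below 0.05 stood 4 genes in S226A liver (Mdm2, Ccng1, Eda2r and Sesn2), where 24.7% of all genes did, 1 in S226A lung (Sesn2; 16.2% of all genes) and 1 in Y130A liver (Mdm2; 9.22%). There were 0 in S226A brain (2.27%), Y130A lung (2.92%) and Y130A brain (2.22%). DESeq2 called 1 gene, Sesn2, in S226A lung and 0 in the other 4 comparisons without a call.

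**Figure D1:**
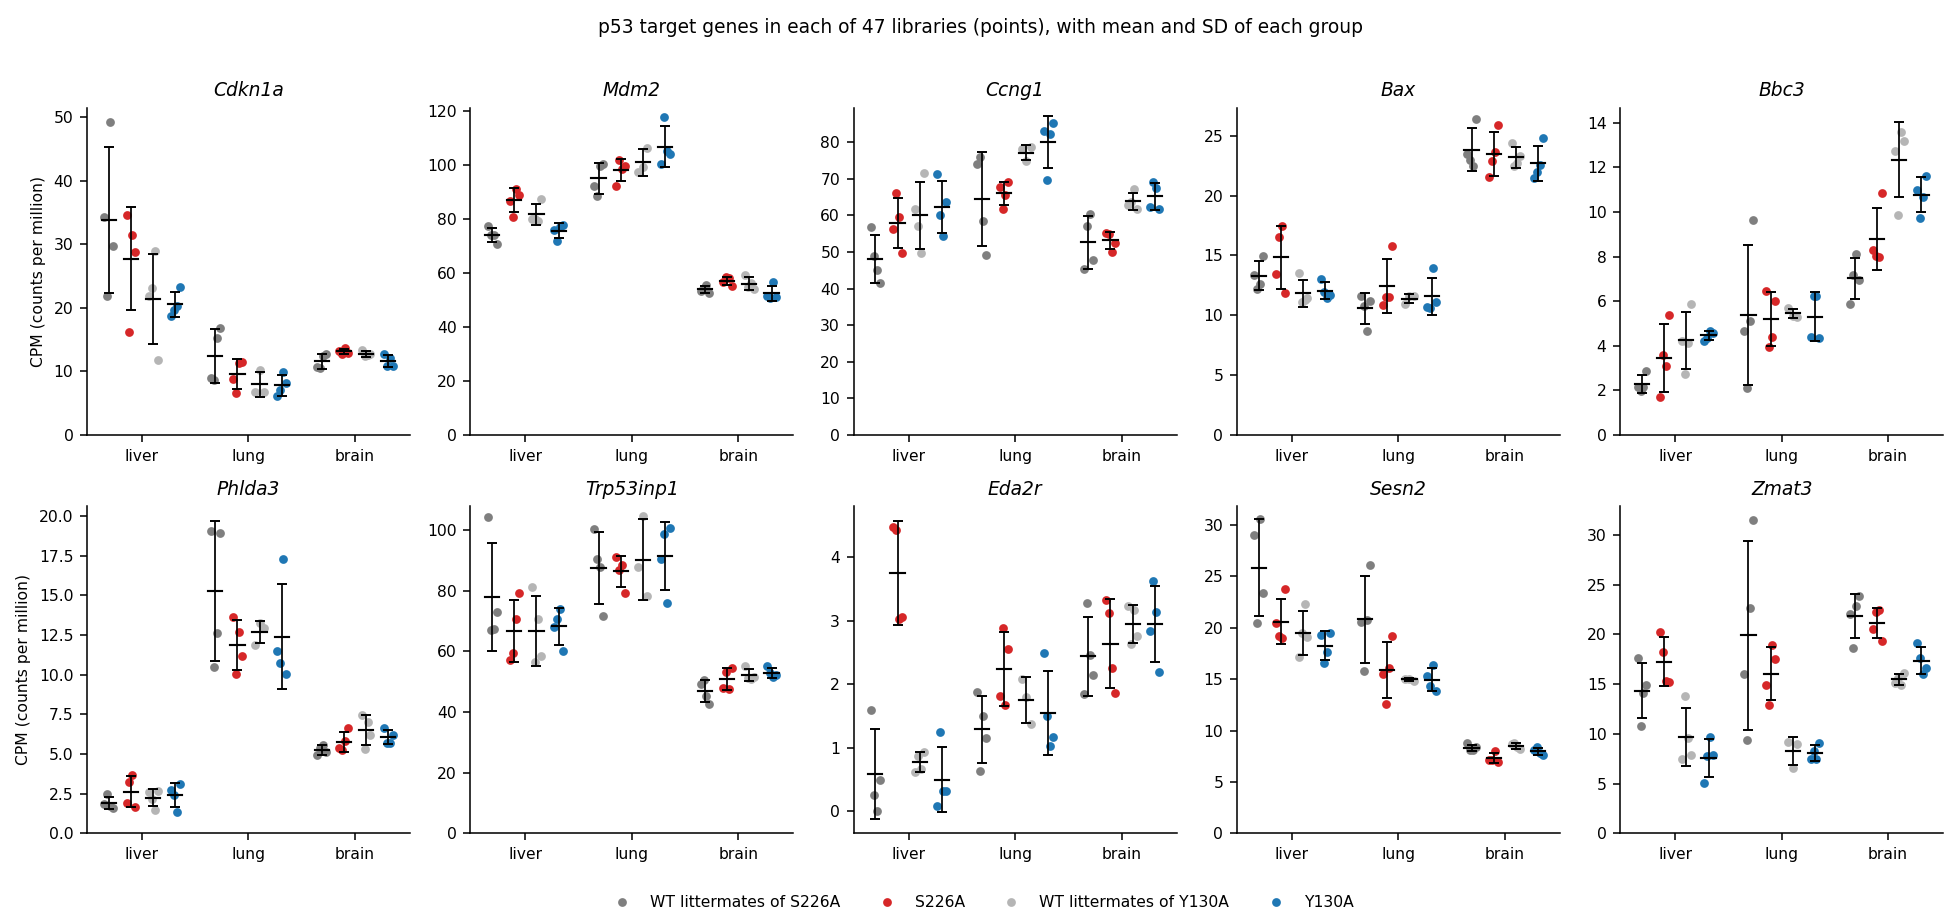
CPM of each of the 10 genes (vertical axes, from 0) in every library (points) by tissue, with the mean and SD of each group as bars; grey points are wild-type littermates of S226A (dark) and of Y130A (light), red points S226A and blue points Y130A. Eda2r in S226A liver, at 3.03 to 4.48 CPM, stands above the liver libraries of the other 3 groups, and Phlda3 is higher in every lung than in any liver or brain.

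Among the genes of arrest and feedback, Mdm2 (chr10:117688875-117710758, minus strand), the ligase that degrades p53, was measured at 86.7, 80.8, 91.3 and 89.0 CPM in the 4 S226A livers. In the wild-type littermates it was at 77.4, 74.1, 73.9 and 70.8 CPM. Every S226A liver lay above every wild-type liver of its litters, as was the case for 6.7% of all genes. The difference was small, with a log2 fold change of 0.23 ± 0.05 (SE, n = 4 against 4, 1.17-fold) and an adjusted p of 0.00306 (edgeR quasi-likelihood test, Benjamini-Hochberg). Among the alternative analyses with the same threshold it passed in 13 of 14 and missed it when only the 8 libraries compared were fitted (adjusted p = 0.0751, edgeR). It did not meet the stringent criteria given below, which ask for a log2 fold change beyond 1. The wild-type livers of the Y130A litters, at 79.4 to 87.5 CPM, overlapped with the S226A livers.

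Blood and immune cells make up part of the fetal liver, and in bulk RNA fewer cells of a type cannot be told apart from less RNA per cell. In S226A liver, 6 of 6 neutrophil markers passed as higher, with a summed level of 7315 to 7858 CPM against 2514 to 2986 CPM in wild-type littermates. All 6 macrophage markers passed as lower, at 112 to 154 CPM against 499.5 to 613 CPM, with Vsig4 at 0 in every S226A liver, and 3 of 6 markers of the B lineage passed as lower. The part of these cells in the differences of Mdm2, Eda2r and the further genes of S226A liver given below was not tested.

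In Y130A liver, Mdm2 lay below its wild-type littermates in every library, at 76.0, 71.7, 76.9 and 77.8 CPM against 80.0, 79.9, 79.4 and 87.5 CPM. The groups did not overlap, as for 1.19% of all genes in that direction. The log2 fold change of -0.11 ± 0.05 (SE) did not pass the test, with an adjusted p of 0.521 (edgeR). In lung, Mdm2 was at 92.3 to 102 CPM in S226A against 88.4 to 100 CPM in wild-type, and in brain at 55.3 to 58.6 CPM against 52.5 to 55.5 CPM, and both pairs of groups overlapped.

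Cdkn1a encodes p21, the inhibitor of cyclin-dependent kinases through which p53 halts the cell cycle. The gene lies at chr17:29090976-29100727 on the plus strand, on the chromosome of Daxx and 4.81 Mb from it, and an annotated transcript on the opposite strand, AC167363.2, shares 7.68% of its exonic bases. In S226A liver it was at 34.6, 16.2, 31.4 and 28.7 CPM, and in wild-type littermates at 34.3, 21.9, 49.3 and 29.8 CPM. The groups overlapped widely, and the log2 fold change of -0.29 ± 0.23 (SE) had an adjusted p of 0.482 (edgeR). Its 95% interval ran from -0.75 to 0.17. Without wild-type replicate 3, the highest of these libraries, the log2 fold change was -0.05 with an adjusted p of 0.961 (edgeR).

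In S226A lung Cdkn1a ranged from 6.62 to 11.5 CPM against 8.63 to 16.8 CPM. The groups overlapped, although each mutant was below its littermate in 4 of 4 litters. The fitted log2 fold change of -0.37 ± 0.24 (SE) had an adjusted p of 0.469 (edgeR). It passed in 0 of 13 alternative analyses, with log2 fold changes between -0.51 and -0.19. The adjusted p was highest without wild-type replicate 4 (0.909, edgeR). In S226A brain the order was the opposite: the 4 mutants, at 12.8 to 13.6 CPM, lay above the 4 wild-type brains at 10.5 to 12.7 CPM, as for 1.24% of all genes in that direction. There the log2 fold change was 0.18 ± 0.23 (SE), with an adjusted p that rounds to 1 (edgeR). In Y130A tissues the log2 fold changes of Cdkn1a were -0.06 in liver, -0.03 in lung and -0.13 in brain.

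Ccng1, which encodes cyclin G1, was at 56.2, 66.1, 59.5 and 49.6 CPM in S226A liver and at 56.7, 48.8, 45.0 and 41.6 CPM in wild-type. The groups overlapped, and the log2 fold change of 0.27 ± 0.11 (SE) did not pass, with an adjusted p of 0.126 (edgeR). Without wild-type replicate 1, the highest of its group, the adjusted p was 0.0474 (edgeR). In the other 5 comparisons its log2 fold change lay between 0.01 and 0.05.

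Among the genes of apoptosis, Eda2r (chrX:97333840-97377216, minus strand), a receptor of the tumour necrosis factor family for ectodysplasin A2, showed the largest fitted difference of the 10 in S226A liver. It was at 4.48, 4.43, 3.03 and 3.05 CPM in the S226A livers, from 46 to 96 reads. The wild-type littermates were at 1.60, 0.263, 0 and 0.490 CPM, from 0 to 26 reads, so that the groups did not overlap although the wild-type values varied several-fold. The log2 fold change was 2.64 ± 0.53 (SE, 6.22-fold, 95% interval 1.57 to 3.71) with an adjusted p of 0.000452 (edgeR, Benjamini-Hochberg). It was past the same threshold in 14 of 14 alternative analyses, with log2 fold changes between 2.25 and 3.83, the highest of these without wild-type replicate 1.

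Eda2r also met the study's stringent criteria (adjusted p below 0.01, log2 fold change beyond 1 and standard error below 1), which 2.1% of all genes met in S226A liver. Y130A livers, at 0.0885 to 1.25 CPM, overlapped with their wild-type littermates at 0.611 to 0.939 CPM. In S226A lung it was at 1.68 to 2.89 CPM against 0.629 to 1.88 CPM, with a log2 fold change of 0.79 ± 0.48 (SE) and an adjusted p of 0.436 (edgeR). In S226A brain it was at 1.86 to 3.32 CPM against 1.85 to 3.29 CPM.

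The other genes of apoptosis did not pass the test in any mutant tissue. Bax, the pore-forming effector at mitochondria, was at 13.4, 16.6, 17.4 and 11.9 CPM in S226A liver and at 13.4, 12.2, 12.6 and 14.96 CPM in wild-type, and the groups overlapped. An annotated transcript on the same strand, Gm45808, shares 12.2% of the exonic bases of Bax, so that reads there are uncertain.

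Bbc3, which encodes the BH3-only protein Puma, was at 1.71, 3.60, 3.09 and 5.37 CPM in S226A liver and at 2.15, 1.97, 2.16 and 2.88 CPM in wild-type, from 26 to 81 reads per library. Its log2 fold change of 0.59 ± 0.30 (SE) had an adjusted p of 0.213 (edgeR), and the S226A livers ranged from below to above all wild-type livers. Phlda3, an inhibitor of Akt, had a log2 fold change of 0.46 ± 0.26 (SE, adjusted p 0.269, edgeR) in the same comparison. Trp53inp1, which takes part in p53-dependent cell death and autophagy, had one of -0.23 ± 0.12 (SE, adjusted p 0.255, edgeR), with 1 wild-type liver at 104 CPM and the other 3 at 67.0 to 72.9 CPM.

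Of the remaining targets, Sesn2 (chr4:132492032-132510501, minus strand), the stress protein sestrin 2 that restrains mTORC1, was lower in the mutant in 11 of 12 littermate pairs of the S226A litters, where the 12 pairs come from 4 litters and 3 tissues. Of all genes, 0.912% were lower in at least as many pairs. In S226A lung it was at 15.5, 12.6, 16.1 and 19.2 CPM, against 20.5, 15.8, 20.8 and 26.1 CPM in the littermates of the same order. The mutant was below its littermate in 4 of 4 litters, although the groups overlapped because the litters differed in level.

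The log2 fold change of Sesn2 in S226A lung was -0.39 ± 0.12 (SE), and it did not pass in the fit without litter (adjusted p = 0.0805, edgeR). With litter as a replicate block it passed (adjusted p = 0.0313, edgeR), as it did with DESeq2 (adjusted p = 0.0428). It was far from the threshold in a fit of only the libraries compared (adjusted p = 0.747, edgeR). Leaving out S226A replicate 4 gave an adjusted p of 0.0420 (edgeR) and leaving out wild-type replicate 2 one of 0.00754 (edgeR). These were the only passes, 4 of 13 alternative analyses with the same threshold. The log2 fold change lay between -0.50 and -0.26 in the 13.

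In S226A liver, Sesn2 was at 20.5, 19.2, 19.0 and 23.8 CPM against 29.0, 20.4, 30.5 and 23.4 CPM, and the groups overlapped. The log2 fold change of -0.33 ± 0.12 (SE) had an adjusted p of 0.0729 without litter and of 0.0402 with litter as a replicate block (edgeR). It was -0.42 with an adjusted p of 0.0211 without the libraries that held squamous transcripts (edgeR). It also passed without wild-type replicate 2 alone (adjusted p = 0.0203, edgeR), one of these libraries, and without S226A replicate 4 (adjusted p = 0.0395, edgeR). These were 4 of 14 alternative analyses with the same threshold, and in the other 10 it did not pass, among them DESeq2 (adjusted p = 0.0535) and the fit of only the libraries compared (adjusted p = 0.271, edgeR).

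In S226A brain, the mutants at 6.90 to 8.03 CPM lay below the wild-type at 8.06 to 8.74 CPM, as for 1.24% of all genes in that direction, with a log2 fold change of -0.19 ± 0.13 (SE) and an adjusted p that rounds to 1 (edgeR). The Y130A tissues had log2 fold changes of Sesn2 of -0.09 in liver, 0.00 in lung and -0.09 in brain. Markers of immune cells moved with the genotype in lung and brain as well as in liver. In lung, 3 of 6 neutrophil markers passed as higher in S226A (116 to 164 CPM summed, against 28.3 to 69.1 CPM) and 2 of 6 macrophage markers as lower (50.8 to 64.7 CPM, against 86.6 to 104 CPM). In brain, 2 of 6 neutrophil markers, S100a8 and S100a9, passed as higher (4.39 to 11.3 CPM summed, against 1.499 to 3.56 CPM) and 2 of 6 macrophage markers, Csf1r and C1qa, as lower (22.7 to 25.8 CPM, against 45.0 to 50.6 CPM). Their part in the values of Sesn2 was not tested.

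Zmat3, an RNA-binding zinc-finger protein that regulates splicing, had adjusted p of at least 0.498 (edgeR) in every mutant comparison. It was at 15.3 to 20.3 CPM in S226A liver against 10.8 to 17.6 CPM in wild-type, and in lung at 12.9 to 18.9 CPM against 9.39 to 31.6 CPM. The wild-type lungs of the S226A litters thus varied over a wider range than the mutants.

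**Figure D2:**
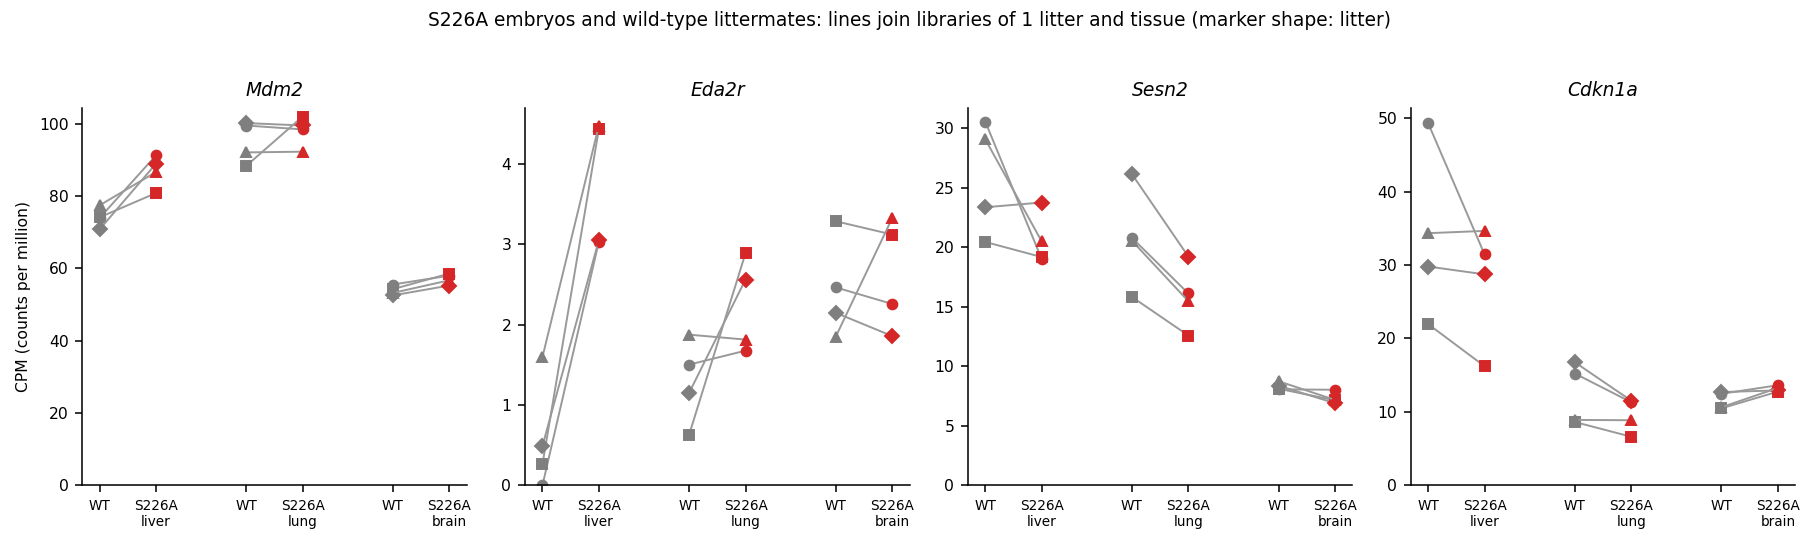
CPM of Mdm2, Eda2r, Sesn2 and Cdkn1a (vertical axes, from 0) in S226A embryos (red) and wild-type littermates (grey), with a line joining the libraries of 1 litter and tissue and a marker shape per litter. Mdm2 and Eda2r are higher in the mutant in 4 of 4 liver pairs, Sesn2 is lower in 11 of 12 pairs, and Cdkn1a is lower in 4 of 4 lung pairs and higher in 4 of 4 brain pairs.

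Averaged over the 10 genes, the log2 fold change was 0.38 in S226A liver, where 7 of 10 were above 0, against a median of -0.01 over all genes tested. This mean rested largely on Eda2r: it was 0.13 without that gene, and the median of the 10 was 0.25. The mean was -0.04 in S226A lung, 0.07 in S226A brain, -0.10 in Y130A liver, -0.01 in Y130A lung and -0.04 in Y130A brain. The mean of log2(CPM + 1) over the genes was 4.19 ± 0.04 (SD, n = 4) in S226A liver and 3.95 ± 0.15 (SD, n = 4) in its wild-type littermates, and no test was made of it since the genes were chosen with results of these data known.

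**Figure D3:**
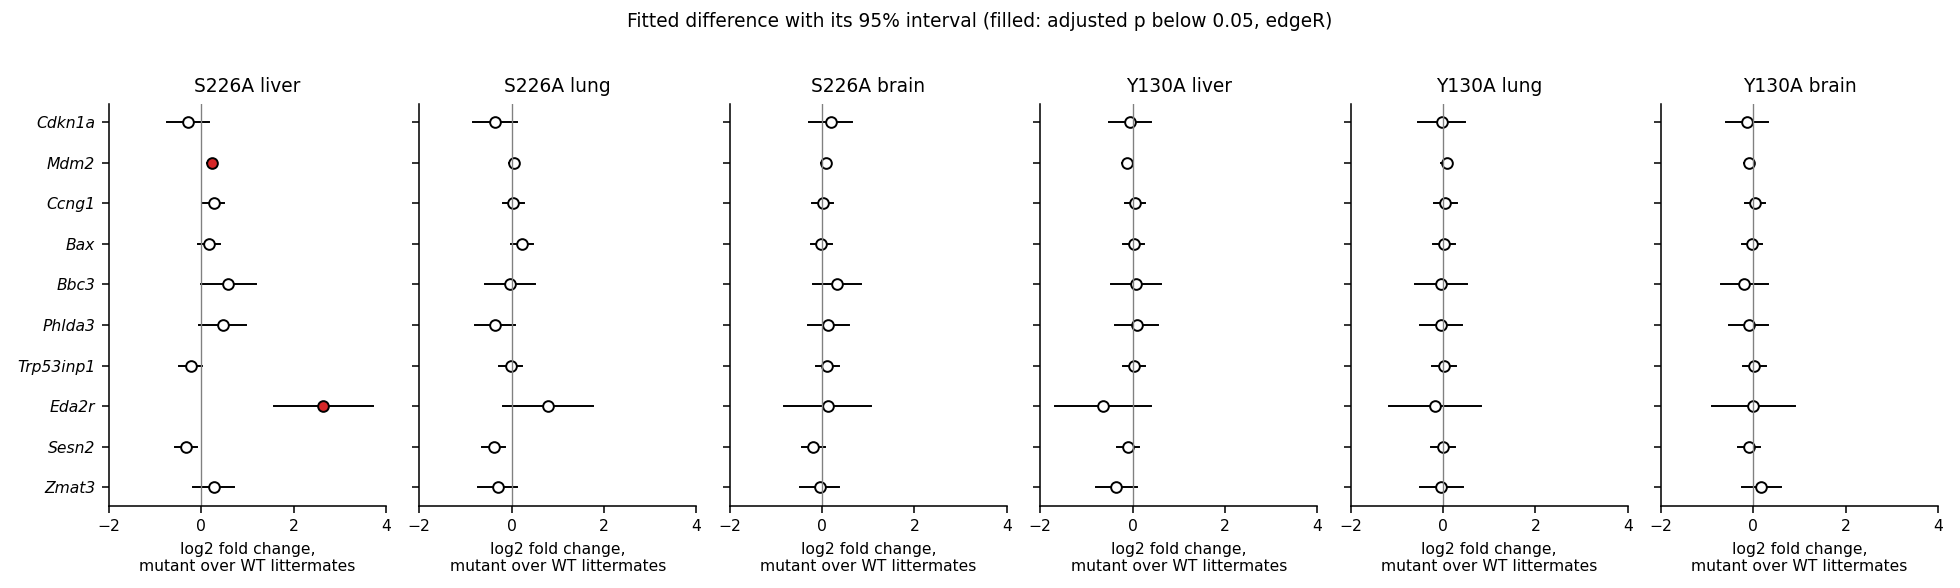
Fitted log2 fold change of each gene (horizontal axes, mutant over wild-type littermates) with its 95% interval in the 6 comparisons; filled points passed at an adjusted p below 0.05. The 2 filled points are Mdm2 (0.23) and Eda2r (2.64) in S226A liver, and the widest intervals belong to Eda2r.

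Whether S226A and Y130A changed these genes differently was asked of the difference between both effects within a tissue. In liver, 2 of the 10 genes passed, against 5.9% of all genes. The effect on Mdm2 was higher in S226A by 0.34 ± 0.08 (SE, log2; adjusted p = 0.00371, edgeR), and that on Eda2r by 3.28 ± 0.74 (SE, log2; adjusted p = 0.00399, edgeR). Both passed in 21 of 21 alternative analyses with the same threshold. The difference then lay between 0.31 and 0.38 for Mdm2 and between 2.67 and 4.47 for Eda2r. Under the stringent criteria Eda2r passed and Mdm2 did not. For Mdm2 this difference also drew on the wild-type embryos, which were at 74.1 ± 2.72 CPM (SD, n = 4) in the S226A litters and at 81.7 ± 3.88 CPM (SD, n = 4) in the Y130A litters without overlap, and litter set and sequencing depth cannot be told apart there. In lung (0.308% of all genes passed) and brain (0.0829%), 0 of the 10 passed with edgeR, and 1 in each had an unadjusted p below 0.05, Sesn2 in lung (9.8% of all genes) and Mdm2 in brain (2.29%). DESeq2 likewise called 0.

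Wild-type embryos of the S226A and the Y130A litters differed in several members without overlap. In brain, Bbc3 was at 7.02 ± 0.907 CPM in the S226A litters and at 12.3 ± 1.70 CPM in the Y130A litters (SD, n = 4 each). Zmat3 was higher in the S226A litters in lung, at 19.9 ± 9.46 CPM (SD, n = 4) against 8.27 ± 1.43 CPM (SD, n = 3), and in brain, at 21.9 ± 2.25 CPM against 15.5 ± 0.553 CPM (SD, n = 4 each). In all, 1 member did not overlap between the sets in liver, 2 in lung and 4 in brain, where 10.7%, 22.0% and 25.3% of all genes did not.

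Between wild-type tissues most genes differed, and the share of the members was near that of the transcriptome. In each pair of tissues 9 of 10 passed the test, and 80.1% of all genes passed between lung and liver, 87.3% between brain and liver and 84.0% between brain and lung. The members went in both directions: relative to liver, 6 were higher and 3 lower in lung, and 5 were higher and 4 lower in brain. The median log2 difference of all genes from liver was 0.08 in lung and 0.08 in brain (0.14 and 0.16 with RLE size factors). Transcripts of Trp53, which encodes p53, were lower than in liver by 0.94 ± 0.10 in lung and by 1.37 ± 0.09 in brain (SE, log2).

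Per exonic kilobase, which allows genes to be compared, Ccng1 had the highest mean over all wild-type embryos in each tissue (15.4 CPM per kb in liver, 19.9 in lung and 16.6 in brain), and Eda2r the lowest (0.115, 0.252 and 0.457). The first place depended on the litters. In the S226A litters it went to Mdm2 in liver (14.6 CPM per kb, Ccng1 13.7) and lung (18.7, Ccng1 18.3) and to Bax in brain (15.1, Ccng1 15.01). In the Y130A litters Ccng1 led in liver (17.1 CPM per kb, Mdm2 16.1), lung (22.0, Mdm2 19.9) and brain (18.2, Bax 14.7).

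The means of Cdkn1a and Sesn2 were highest in liver. Cdkn1a was at 27.6 ± 11.1 CPM in liver (SD, n = 8), 10.5 ± 3.99 CPM in lung (n = 7) and 12.2 ± 1.05 CPM in brain (n = 8). Liver exceeded lung by a log2 difference of 1.44 and brain by 1.15, with adjusted p of 7.78e-10 and 2.77e-08 (edgeR), whereas brain and lung did not differ beyond their spread (adjusted p = 0.104, edgeR). Sesn2 was at 22.7 ± 4.81 CPM in liver, 18.3 ± 4.32 CPM in lung and 8.41 ± 0.292 CPM in brain, and each pair of tissues passed the test. Cdkn1a in liver overlapped with both other tissues. For Sesn2, liver and lung overlapped, and every wild-type brain lay below every wild-type liver and lung.

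Lung stood out by Phlda3, at 14.2 ± 3.43 CPM (SD, n = 7) against 2.08 ± 0.482 CPM in liver and 5.88 ± 0.940 CPM in brain (n = 8 each). The difference from liver, 2.74 ± 0.17 (SE, log2, 6.68-fold; adjusted p = 2.86e-18, edgeR), was the largest of any member between tissues, and no wild-type lung overlapped with the other tissues. Mdm2 was also highest in lung, at 97.6 ± 5.87 CPM, then at 77.9 ± 5.12 CPM in liver and 55.0 ± 2.09 CPM in brain, and the 3 ranges did not overlap. Trp53inp1 had the same order, with 88.6, 72.3 and 49.6 CPM, and lung and liver overlapped.

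Of the 5 genes of apoptosis, Bax, Bbc3 and Eda2r were highest in brain, Phlda3 was highest in lung and Trp53inp1 was lowest in brain. Bax was at 23.5 ± 1.34 CPM in brain (SD, n = 8), 12.6 ± 1.33 CPM in liver and 10.9 ± 1.03 CPM in lung, and every wild-type brain exceeded every other wild-type library. Bbc3 was at 9.69, 3.26 and 5.41 CPM in brain, liver and lung, and Eda2r at 2.69, 0.679 and 1.49 CPM, each with brain above liver without overlap and above lung with overlap. Zmat3 was higher in brain than in liver by 0.64 ± 0.15 (SE, log2) and did not differ between lung and liver beyond its spread (adjusted p = 0.490, edgeR).

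**Figure D4:**
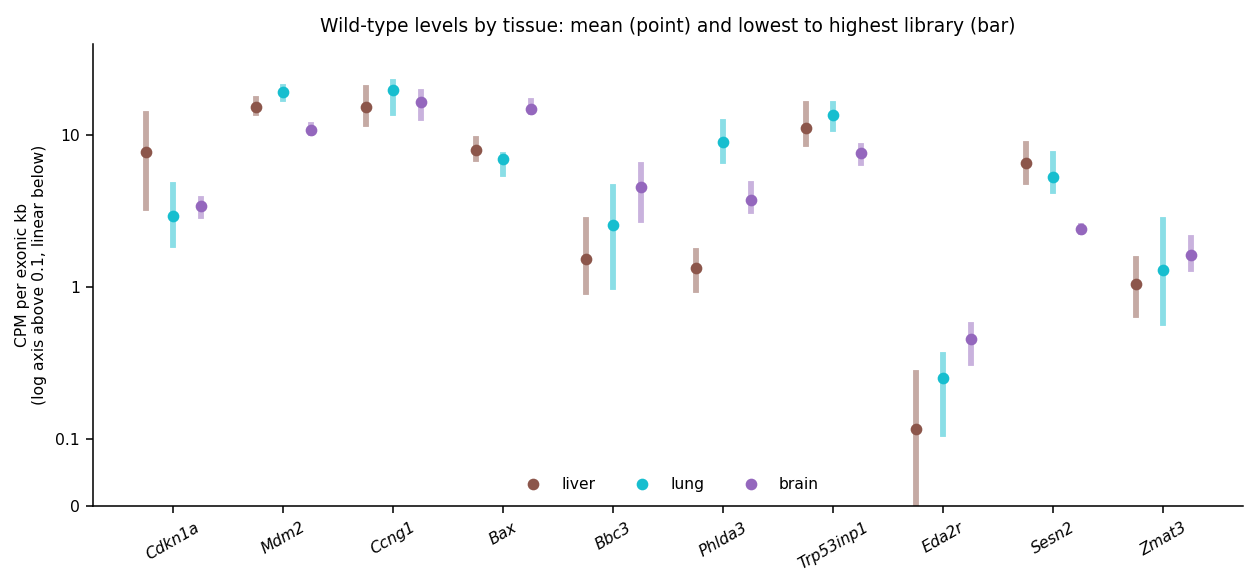
CPM per exonic kilobase of the 10 genes in wild-type liver, lung and brain (vertical axis, logarithmic above 0.1 and linear below), with the mean as a point and the range from the lowest to the highest library as a bar. Phlda3 is highest in lung, Bax in brain and Cdkn1a in liver, and Eda2r is the lowest gene in each tissue.

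A further 87 genes that were tested (of 89 listed) comprised 54 regulators and other targets of p53 and 33 related genes, of apoptosis outside the classical targets, of the cell cycle and of stress or glucocorticoid responses. In S226A liver 3 of the 54 passed as higher and 1 as lower, or 7.41%, and 3 of the 33 as higher and 1 as lower, or 12.1%, against 11.7% of all genes. Apaf1, the scaffold of the apoptosome and itself a p53 target, was at 104 ± 3.63 CPM in S226A liver against 74.4 ± 1.79 CPM (SD, n = 4 each), with a log2 fold change of 0.48 ± 0.06 (SE; adjusted p = 2.57e-07, edgeR). Xpc, a DNA damage sensor of nucleotide excision repair, was at 36.8 ± 0.774 CPM against 25.9 ± 2.66 CPM, with one of 0.51 ± 0.08 (SE; adjusted p = 5.89e-06, edgeR). Each of them separated the groups, as did 6.7% of all genes in that direction, and passed in 14 of 14 alternative analyses with the same threshold.

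Of 10 genes of apoptosis that are not classical p53 targets, 3 passed as higher and 1 as lower in the same livers, where 6.14% of all genes passed as higher and 5.54% as lower. Bak1, a pore-forming relative of Bax, had a log2 fold change of 0.46 ± 0.09 (SE; adjusted p = 0.000178, edgeR), Bid, a BH3-only activator, one of 0.62 ± 0.14 (SE; adjusted p = 0.00133, edgeR) and Bcl2, an inhibitor of apoptosis, one of 0.40 ± 0.09 (SE; adjusted p = 0.00329, edgeR). Bcl2l1, a second inhibitor, passed as lower (-0.26 ± 0.07, adjusted p = 0.0174, edgeR). Bcl2 and Bcl2l1 missed the threshold when only the libraries compared were fitted (adjusted p of 0.122 and 0.0789, edgeR), and Bcl2l1 also without S226A replicate 2 (adjusted p = 0.0877, edgeR).

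Rchy1, a ubiquitin ligase of p53, had a log2 fold change of 0.24 ± 0.07 (SE; adjusted p = 0.0281, edgeR) and passed in 7 of 14 alternative analyses with the same threshold. It did not pass without S226A replicate 2 or 4 or without wild-type replicate 1, 2 or 4, with adjusted p of 0.0545 to 0.130 (edgeR). Nor did it pass without the 2 libraries with squamous transcripts (adjusted p = 0.0991, edgeR) or with only the libraries compared (adjusted p = 0.201, edgeR). Trp63, a relative of p53 in stratified epithelia, was fitted as lower (-4.09 ± 1.22, adjusted p = 0.0214, edgeR), and this rested on the wild-type liver with squamous transcripts, at 6.70 CPM. Without both such libraries its log2 fold change was -1.73 with an adjusted p of 0.334 (edgeR), and without wild-type replicate 2 alone the adjusted p was 0.447 (edgeR).

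In S226A lung, 3 of the 87 genes passed as higher and 1 as lower, or 4.60%, against 1.88% of all genes, and these 4 were among the 33 related genes. The cell-cycle genes Ccna2 (0.49 ± 0.13, adjusted p = 0.0411, edgeR) and Cenpf (0.50 ± 0.14, adjusted p = 0.0483, edgeR) were higher, 2 of a list of 12 whose median was 0.38. Asns, asparagine synthetase, was higher by 0.56 ± 0.13 (adjusted p = 0.0153, edgeR), and Atf3, a stress-induced transcription factor, was lower by 1.27 ± 0.33 on the log2 scale (adjusted p = 0.0306, edgeR). With litter as a replicate block Atf3 no longer passed (adjusted p = 0.0558, edgeR), while Ccna2, Cenpf and Asns did (adjusted p of 0.000817, 0.00263 and 0.00043, edgeR). Without S226A replicate 2 the adjusted p of the 4 genes were 0.0750 to 0.244 and without wild-type replicate 3 they were 0.0874 to 0.302 (edgeR), and leaving out S226A replicate 1, 3 or 4 or wild-type replicate 4 ended 2 or 3 of the 4 calls. They passed in 4 (Cenpf) to 10 (Asns) of 13 alternative analyses with the same threshold. They did not pass with only the libraries compared, where the adjusted p were between 0.377 and 0.747 (edgeR). Markers of immune cells also moved in S226A lung, as given above, and their part in these 4 differences was not tested.

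In Y130A liver 1 of the 87 passed, Sesn1, the sestrin paralog of Sesn2, at 103 to 114 CPM in the mutants and 74.5 to 94.0 CPM in wild-type without overlap, as for 1.16% of all genes in that direction. Its log2 fold change was 0.41 ± 0.07 (SE; adjusted p = 0.00179, edgeR), and 0.272% of all genes passed. It missed it in 1 of 14 alternative analyses with the same threshold, the fit of only the libraries compared (adjusted p = 0.182, edgeR). In S226A brain, Y130A lung and Y130A brain 0 of the 87 passed (edgeR). Transcripts of Trp53 differed by log2 fold changes between -0.17 and 0.05 and those of Mdm4, a second inhibitor of p53, between -0.09 and 0.17 over the 6 mutant comparisons, and neither passed.

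Within groups, some of the 10 genes varied together and others did not. The departures of the 47 libraries from their 12 group means on the log2(CPM + 1) scale had a median correlation of 0.04 over the 45 pairs of genes, from -0.47 (Cdkn1a with Ccng1) to 0.61 (Cdkn1a with Sesn2), and 25 of the 45 were above 0. Cdkn1a, Sesn2 and Zmat3 had 0.46 to 0.61 with one another, and Bax with Phlda3 had 0.47. Those of Cdkn1a were not alike in both litter sets. With Sesn2 it had 0.72 in the S226A litters, 0.33 in the Y130A litters and 0.07 in brain. With Zmat3 it had 0.61 in the S226A litters, 0.16 in the Y130A litters and 0.55 in brain. These are descriptions, since libraries of 1 embryo share genotype and litter and no test was made. The median coefficient of variation between replicates was lowest for Mdm2 (4.48%) and highest for Cdkn1a (22.4%) and Eda2r (25.8%).

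The departures of Cdkn1a followed a pair of genes that glucocorticoids induce, which were noticed after their values were seen. Zbtb16 had r = 0.75 with Cdkn1a (rho = 0.75), rank 6 among 16891 other genes, and Per1 had r = 0.68 (rho = 0.63), rank 46. Without the 2 libraries farthest from the median of Cdkn1a, r was 0.74 and 0.67. It was high in liver (0.71 and 0.63, 16 libraries) and lung (0.86 and 0.87, 15 libraries) and lower in brain (0.33 and 0.03, 16 libraries), where Cdkn1a varied little. It was 0.85 and 0.79 in the S226A litters and 0.62 and 0.50 in the Y130A litters. Other glucocorticoid-induced genes on the list had r of 0.62 (Fkbp5) and 0.33 (Tsc22d3, rank 2083). In brain these were -0.22 and -0.17. Pml, which is listed among the regulators of p53, had an r of 0.62 as well, at rank 139 where Fkbp5 was at rank 145. Among the p53 targets themselves r with Cdkn1a ran from -0.47 (Ccng1) to 0.61 (Sesn2), with Zmat3 at 0.46 and Mdm2 at 0.15. For Mdm2 it was 0.52 in the S226A litters and -0.27 in the Y130A litters.

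**Figure D5:**
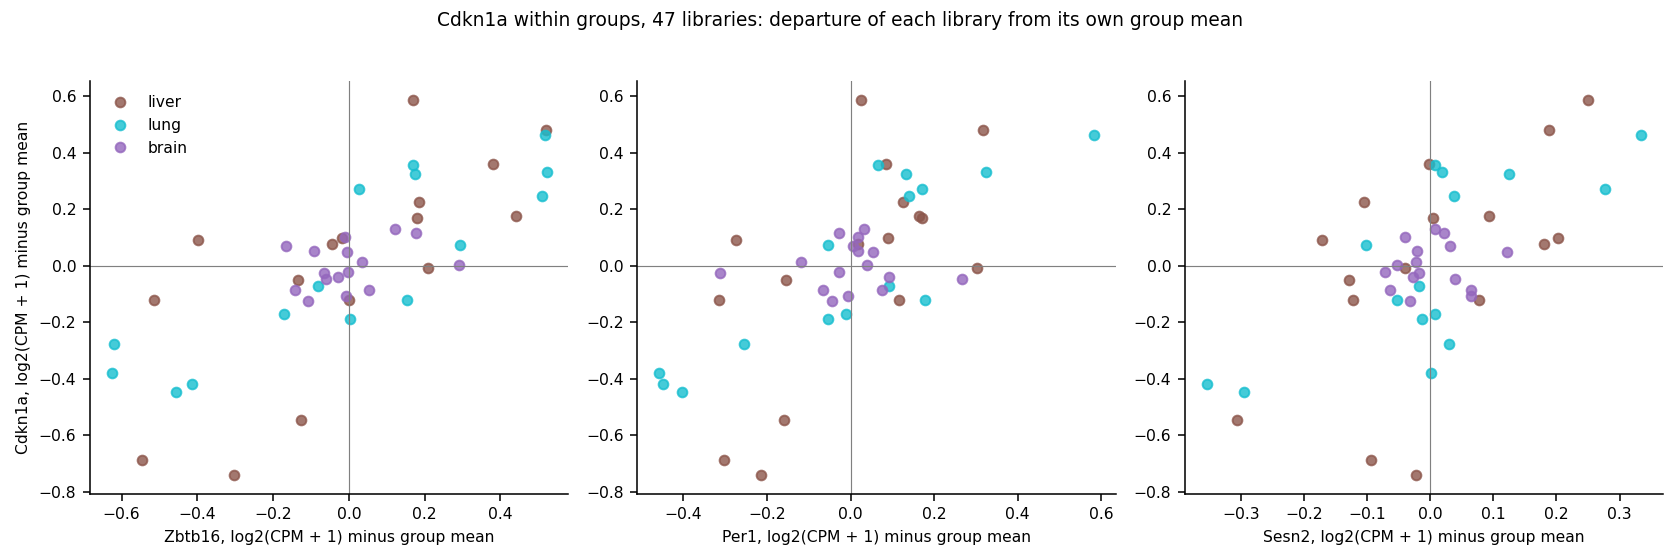
Departure of Cdkn1a from its group mean on the log2(CPM + 1) scale (vertical axis) in each of 47 libraries against that of Zbtb16, Per1 and Sesn2 (horizontal axes, same scale), coloured by tissue. Liver and lung libraries spread along a rising line for Zbtb16 (r = 0.75) and Per1 (r = 0.68), and brain libraries cluster near 0.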

How the data were processed

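The authors extracted total RNA with Trizol, sequenced it, checked and trimmed reads (FastQC 0.11.5, Trim Galore 0.6.5, per the submitters' processing notes), aligned them to GRCm38 with STAR 2.6.0b and counted them on genes of GENCODE. They deposited raw counts per gene, without normalization; the strand setting is not given in the sources used here. The authors set 1 wild-type lung aside as an outlier by its expression profile, and it was not analysed here, which left 47 libraries. For transposable elements in S226A lung, the paper also describes a possible outlier among the wild-type samples. Its printed label is close to that of wild-type lung replicate 4 of the S226A litters, which was kept here. Positions and exons come from GENCODE M21 (GRCm38) and promoter windows from RefSeq (GRCm38.p6).

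Counts were fitted with edgeR 4.0.16 (R 4.3.3): TMM scaling, filter on low counts (minimum 10, total 15), 1 coefficient per group over all 47 libraries, quasi-likelihood test with 35 residual degrees of freedom, Benjamini-Hochberg adjustment over 16892 genes and calls at adjusted p below 0.05. Standard errors were taken from the ratio of the log2 fold change to the root of the F statistic, and 95% intervals from the t distribution with the degrees of freedom of the test. The fit was tested on simulated counts. CPM are TMM-scaled. Alternatives were DESeq2 1.42.0, RLE size factors, no filter, stringent criteria, litter (between tissues: embryo) as replicate block, only the libraries compared, only 1 litter set, each library left out and, chosen after seeing the data, 2 liver libraries left out. Figures were drawn with matplotlib 3.10.9.

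The members and gene lists were chosen with earlier results of these data known. Named are the 10 members, Trp53, Mdm4, Daxx, every listed pathway gene with an adjusted p below 0.05 in a mutant comparison (at most 4 per list) and the 5 genes outside the lists that varied most like the members. Outside this rule, some listed genes are named for their correlation with a member, and some cell type markers are named. Litter numbers in the labels pair embryos: residuals of littermates correlated above 0.1 in 18 of 23 pairs (median 0.21), against 5 of 69 other pairs (median -0.06). Depth was 15722147 to 54885020 counts per library. Embryos were the replicates, and no 2 libraries of a group were copies (lowest chi-square per degree of freedom 4.17 over 69 pairs).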

Additional observations from a re-analysis of the deposited data

Results flagged for a closer look

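The effects of S226A and Y130A on liver differed for Mdm2, by 0.34 (log2), and for Eda2r, by 3.28 (log2), in the test of the difference itself. With 1 library left out, the difference ranged from 0.31 to 0.38 for Mdm2 and from 2.89 to 4.47 for Eda2r. Single libraries lay far from the other 3 of their group in 8 of 110 groups of 4, where chance gives about 1 in 20. For Mdm2 these were a wild-type liver of the Y130A litters at 87.5 CPM (others 79.4 to 80.0 CPM) and a Y130A brain at 56.6 CPM (others 50.8 to 51.4 CPM). For Bax they were a wild-type liver of the Y130A litters at 13.5 CPM (others 11.1 to 11.5 CPM), an S226A lung at 15.8 CPM (others 10.8 to 11.5 CPM) and a Y130A lung at 13.9 CPM (others 10.6 to 11.1 CPM). Bbc3 was at 10.9 CPM in 1 S226A brain (others 7.99 to 8.29 CPM). Trp53inp1 was at 104 CPM in 1 wild-type liver of the S226A litters (others 67.0 to 72.9 CPM) and at 55.2 CPM in 1 wild-type brain of the Y130A litters (others 50.8 to 51.4 CPM).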

How the results depend on the processing

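Of 294 recomputed values of the counts and means, 278 stayed within 1.5 times the count, or within 1 SD between libraries of the mean. Within these limits, calls in S226A liver rose from 2 to 3, with Sesn2 added, with litter as replicate block and without the 2 libraries with squamous transcripts. The values outside them were these, and their cause was not tested. Calls in S226A liver fell from 2 to 1 (Eda2r) under the stringent criteria and to 1 (Eda2r) with only the libraries compared. In S226A lung 1 gene, Sesn2, was called with DESeq2 and 1, Sesn2, with litter as replicate block. Under the stringent criteria 1 gene (Eda2r) differed in effect between the mutants in liver, and 3, 5 and 3 genes were called between lung and liver, brain and liver, and brain and lung. The mean log2 fold change in S226A liver was 0.24 as a difference of mean log2(CPM + 1) and 0.25 as a median. In Y130A liver the same alternatives gave -0.053 and -0.018.

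When 1 library was left out, the calls ranged from 2 to 3 in S226A liver (3 without wild-type replicate 1 or 2 or S226A replicate 4), from 0 to 1 in S226A lung (1 without wild-type replicate 2 or S226A replicate 4), from 8 to 9 between lung and liver and from 8 to 10 between brain and lung. They stayed at 0 in the other 4 mutant comparisons, at 2 for the difference of effects in liver, at 0 in lung and brain, and at 9 between brain and liver. The mean log2 fold change then ranged from 0.31 to 0.54 in S226A liver (0.54 without wild-type replicate 1), from -0.14 to 0.06 in S226A lung, from 0.04 to 0.09 in S226A brain, from -0.19 (without Y130A replicate 2) to -0.061 in Y130A liver, from -0.04 to 0.01 in Y130A lung and from -0.07 to -0.02 in Y130A brain.

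Litter as a block changed the call of Sesn2 in S226A liver and lung and of no other member, and, of the further pathway genes that passed, that of Atf3 in S226A lung. Over all genes, calls in S226A liver were 1972 and 1130 with only the libraries compared. In S226A lung they were 317, 643 with DESeq2, 612 with litter as block and 34 with only the libraries compared. In Y130A liver they were 46, 304 with DESeq2, 98 with litter as block and 5 with only the libraries compared. Eda2r, Bbc3 and Phlda3 had at most 96 reads per library in liver of the S226A litters, which limits the precision there.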

Other observations

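The 5 genes outside the lists whose departures from the group means were most like the mean departure of the 10 p53 targets over 47 libraries were Atg4d (r = 0.74), Lrfn1 (0.72), Htatip2 (0.72), Mapk12 (0.71) and Kctd17 (0.71). All 12 listed cell-cycle genes were lower in wild-type lung than in liver, in brain than in liver and in brain than in lung (edgeR, adjusted p below 0.05), where 80.1%, 87.3% and 84.0% of all genes passed in either direction. Zmat3 varied within groups with Hipk2 and Ep300 (r = 0.77 each) and Ccng1 with Rpl5 (r = 0.69) over the 47 libraries, which were singled out after their values were seen and not tested.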
